A study of Homo sapiens with 6 samples.

Results

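The vector libraries give the baseline transcriptome of F36P, a long-established human line of acute erythroid leukaemia. The line is known to depend on cytokines such as GM-CSF or IL-3 for growth. The 3 libraries labelled vector were taken from the 6 of the series, and their columns NC1, NC2 and NC3 were taken as vector because that is the only other group beside ERG. The remaining 3 libraries, of cells with an ERG-expressing virus, were not used here. In the vector group the genotype is labelled WT, and the cells carried the empty retrovirus MSCV-PIG and had been kept in 1 µg/ml puromycin for 4 days, a treatment all groups of the series shared. Untransduced or unselected F36P cells were not analysed here, so the values describe selected, virus-carrying cells. Because there is 1 group, no contrast was tested, and levels are given with their spread over the 3 libraries.

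Red cell precursors express a common program: transcription factors led by GATA1 and KLF1 switch on globin, haem synthesis and membrane genes, while erythropoietin signals through its receptor EPOR, the kinase JAK2 and STAT5. The alpha-like chains (HBZ, then HBA1 and HBA2) pair with beta-like chains that follow the age of the body, epsilon (HBE1) in the embryo, gamma (HBG1 and HBG2) in the fetus and beta (HBB) in the adult. Megakaryocytes, mast cells, basophils and eosinophils share the GATA factors with the red cell line, and erythroleukaemia cells often carry marks of several of these lineages.

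The counts totalled 11546541, 13615797 and 10257141 in vector replicates 1, 2 and 3, over 14821 genes. The values are on either of 2 scales. CPM are counts per 1000000 reads after TMM normalisation and compare libraries for 1 gene. TPM are counts per kilobase of exon scaled to a sum of 1000000 in each library. Levels of different genes are compared in TPM unless CPM is named. Counts of genes that reach a minimum CPM are not divided by length, so a long gene reaches it more easily. A mean of at least 10 CPM was reached by 9730 genes, 65.7% of the table, and 60 genes reached 1000 CPM. Replicate 1 stood apart from the others: the correlation of log2 CPM over the 9730 genes was 0.928 between replicates 1 and 2, 0.922 between 1 and 3 and 0.977 between 2 and 3. These correlations are across genes, which are not independent replicates. The labels call the replicates biological and do not say from which cultures they came, so the spread may be partly technical. Where leaving out a library moves a member's level by over 1.5 times, its values are given by library.

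The promoters of 3 genes described below are shown because they carry the letters that GATA factors are known to bind, and that of GATA1 because it carries none. Each is the 250 bases before the RefSeq gene start (GRCh38.p14), written 5′ to 3′ on the gene's own strand, with matches to AGATAA or AGATAG, or to TGATAA or TGATAG, on either strand in capitals. The EPOR promoter lies at chr19:11384315-11384564 on the minus strand, and its match starts 78 bases before the gene start.
EPOR: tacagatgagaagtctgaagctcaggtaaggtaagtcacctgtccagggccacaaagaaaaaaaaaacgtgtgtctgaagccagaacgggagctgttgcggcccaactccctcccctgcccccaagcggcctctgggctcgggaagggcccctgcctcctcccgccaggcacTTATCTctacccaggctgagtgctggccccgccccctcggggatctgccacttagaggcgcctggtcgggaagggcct
The KLF1 promoter lies at chr19:12887202-12887451 on the minus strand, with matches 66 and 13 bases before the start.
KLF1: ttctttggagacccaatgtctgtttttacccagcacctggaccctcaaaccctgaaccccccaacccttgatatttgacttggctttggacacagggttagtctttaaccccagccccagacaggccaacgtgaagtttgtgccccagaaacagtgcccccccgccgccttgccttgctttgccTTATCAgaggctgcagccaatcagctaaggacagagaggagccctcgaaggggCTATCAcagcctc
The ITGA2B promoter lies at chr17:44389650-44389899 on the minus strand, with a match 102 bases before the start.
ITGA2B: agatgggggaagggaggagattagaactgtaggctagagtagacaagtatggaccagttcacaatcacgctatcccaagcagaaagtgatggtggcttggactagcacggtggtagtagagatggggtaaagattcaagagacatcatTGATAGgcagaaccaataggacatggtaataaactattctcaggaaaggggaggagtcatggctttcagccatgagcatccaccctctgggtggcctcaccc
The GATA1 promoter lies at chrX:48786340-48786589 on the plus strand and holds 0 matches.
GATA1: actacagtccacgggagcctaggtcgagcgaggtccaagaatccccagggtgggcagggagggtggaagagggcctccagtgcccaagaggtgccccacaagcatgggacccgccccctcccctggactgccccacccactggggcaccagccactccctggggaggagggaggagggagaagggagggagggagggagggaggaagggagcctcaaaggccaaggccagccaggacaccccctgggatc
Such letters were found in 22.3% of all 35116 RefSeq promoters of this length and in 14.7% of the 15010 promoters of genes in the table. Among promoters of the red cell membrane list 16 of 39 held one, of the erythroid regulators 7 of 32, of the megakaryocyte list 8 of 22, of the mast cell, basophil and eosinophil list 6 of 10, of haem synthesis 5 of 18, of glycolysis 8 of 47 and of the proliferation list 0 of 20. The haemoglobin list had a promoter entry for 1 gene. A match is a description of the letters and not a binding site.

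The gamma globin gene HBG2 had the highest level of the 11919 nuclear protein-coding genes that could be given a length. Its level was 17451, 30731 and 27889 TPM in replicates 1, 2 and 3, a mean of 25357 ± 6993 (SD, n = 3), and it was lowest in replicate 1. The alpha globin genes HBA2 and HBA1 followed in ranks 3 and 5, at 2586, 6380 and 5654 TPM and at 2114, 4009 and 4196 TPM. Replicate 1 was again the lowest for both. HBG1, the other gamma gene, had rank 19 and 1308 ± 197 TPM. In GENCODE release 29 (hg38) HBG2 is on chromosome 11 from 5253190 to 5505605, a span that overlaps that of HBE1 (5268345 to 5505652), so reads in shared exons could be divided between them.

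Of the 10 measured genes of the haemoglobin list 6 reached 10 CPM, against 65.7% of all genes, and the list median was 147 TPM. Among the beta-like chains, gamma made up 99.9% of the summed level in each library (99.9 ± 0.0341, SD, n = 3). The embryonic, adult and minor adult genes HBE1, HBB and HBD together made up 0.146, 0.141 and 0.0848%. HBE1 was counted 60, 168 and 55 times, HBB 42, 51 and 12 times and HBD 30, 23 and 27 times, so these levels rest on few reads. The summed gamma level exceeded that of HBE1 by 10.34 ± 0.47 and that of HBB by 12.26 ± 1.10 on the log2 scale, in 3 of 3 libraries each. The levels of HBB (5.89 ± 2.84 TPM) and HBD (5.42, 3.55 and 6.03 TPM) did not differ beyond their spread.

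Of the alpha-like genes, the embryonic HBZ stood at 13.7, 41.0 and 13.5 TPM and had a log2 ratio of -8.64 ± 0.78 to HBA1 plus HBA2. Gamma exceeded alpha in every library, with log2 ratios of 1.98, 1.63 and 1.57 (mean 1.73 ± 0.22, or 3.31-fold). Alpha-like genes held 20.7, 24.7 and 25.4% of the summed globin level. HBG2 accounted for 94.2, 95.5 and 95.2% of the gamma level. That last split is uncertain, since HBG1 and HBG2 are near-identical copies whose reads the counting could divide, and their merged exons measure 1659 and 869 bases. The same holds for HBA1 against HBA2. The counter is not known, so reads that fit both copies may also have been dropped. The summed gamma and alpha levels, and the ratio and shares taken from them, carry that limit. AHSP, the chaperone of free alpha chains, had 218, 211 and 59.0 TPM and was lowest in replicate 3. All globin genes together took 0.791, 1.42 and 1.20% of the counts and 2.34, 4.28 and 3.93% of the summed TPM, with replicate 1 lowest on both scales.

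**Figure D1:**
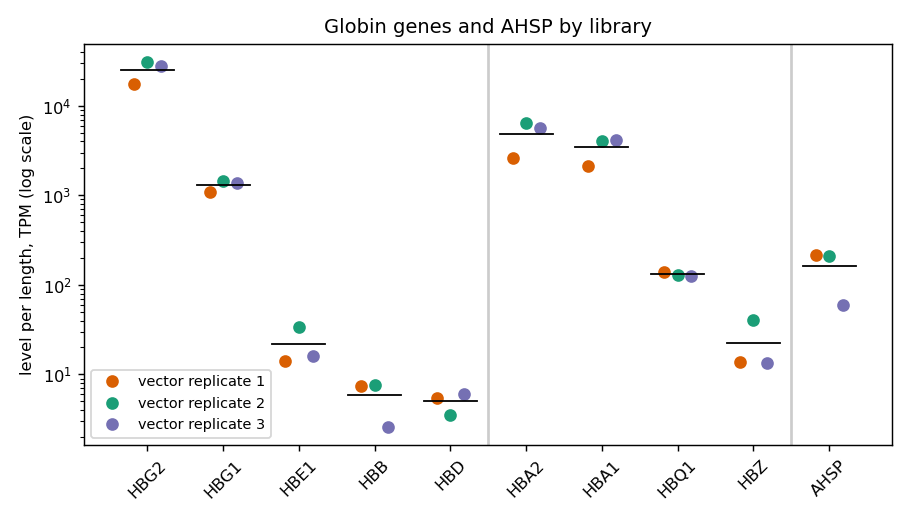
Level per length (TPM, log scale) of each globin gene and AHSP; points are the 3 vector libraries and the bar is their mean, with beta-like genes on the left, alpha-like genes in the middle and AHSP on the right. HBG2 lies between 17451 and 30731 TPM, while HBB lies below 8 TPM in each library.

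The haem synthesis list, which also holds genes of haem breakdown such as HMOX1 and BLVRB, was at high levels. Of its 18 genes 17 reached 10 CPM, against 65.7% of all genes. The list median was 86.7 TPM, against 16.2 TPM for all genes. The highest were BLVRB, a biliverdin reductase, at 684 ± 225 TPM, TMEM14C, a mitochondrial porphyrin carrier, at 661 ± 174 TPM, and UROD, a step of porphyrin synthesis, at 396 ± 62.5 TPM. FECH, which inserts the iron, stood at 170 ± 42.1 TPM. ALAS2, the red-cell form of the first enzyme, exceeded the general form ALAS1 in 3 of 3 libraries, at 211, 111 and 141 TPM against 75.6, 68.3 and 65.4 TPM. Their levels did not overlap, and the log2 ratio was 1.10 ± 0.39. HMOX1, which breaks haem down, was the lowest member at 17.9, 3.26 and 5.78 TPM (mean 8.99, and 4.52 without replicate 1).

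Iron genes reached higher still, with a median of 139 TPM. Of the measured genes 18 of 18 were at 10 CPM or more, against 65.7% of all genes. The ferritin light chain FTL was the second protein-coding gene by level, with 5472, 5550 and 5274 TPM. These values differed little between libraries. The heavy chain FTH1 stood at 1260 ± 200 TPM, and its log2 ratio to FTL was -2.12 ± 0.23. PCBP1, an iron chaperone, was at 757 ± 103 TPM. The transferrin receptor TFRC was at 389, 881 and 974 TPM and its relative TFR2 at 212, 160 and 170 TPM. TFRC exceeded TFR2 in 3 of 3 libraries, by 0.87 in replicate 1 and by 2.46 and 2.52 in replicates 2 and 3 on the log2 scale. SLC11A2, an iron transporter, was lowest at 10.7 ± 1.42 TPM.

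Of the 32 red cell membrane genes, 29 reached 10 CPM, against 65.7% of all genes, and the median was 51.5 TPM. RHAG, the Rh-associated glycoprotein, led with 522, 640 and 721 TPM. BSG stood at 338 ± 64.4 TPM and stomatin, STOM, at 227 ± 20.5 TPM. The anion exchanger SLC4A1 had 43.5, 41.6 and 14.5 TPM and was lowest in replicate 3. BCAM was at 1.02 ± 0.245 TPM, and AQP1, the water channel, at a mean of 1.26 TPM.

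Every one of the 25 erythroid regulators reached 10 CPM, against 65.7% of all genes, with a median of 62.0 TPM. All measured genes of the glycolysis and citrate cycle lists reached that level too, so the count is not particular to red cell genes. LDB1, the bridging protein of the GATA1 complex, was at 718, 745 and 773 TPM. KLF1, the activator of red cell genes whose promoter is printed above, was at 648, 616 and 705 TPM and had rank 86. In CPM it was 392, 379 and 385, among which the spread was small (385 ± 6.51 CPM). GATA1 was at 494, 329 and 375 TPM, rank 162 (chromosome X, 48786554 to 48794311), and highest in replicate 1. NFE2, a globin gene activator, was at 359 ± 59.3 TPM, and the lowest member was the small MAF protein MAFK at 6.68 ± 2.10 TPM.

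GATA2, which precedes GATA1 in development, was at 255, 322 and 422 TPM. The levels of GATA1 and GATA2 overlapped: the log2 ratio was 0.95, 0.03 and -0.17 (0.27 ± 0.60) and turned to -0.07 without replicate 1. GATA1 exceeded SPI1, the myeloid factor PU.1, in 3 of 3 libraries by 0.85 ± 0.16. KLF1 exceeded FLI1, an ETS factor of megakaryocytes, by 5.01 ± 0.23, with 23.6, 19.0 and 18.6 TPM of FLI1. That log2 ratio was 4.41 with the longest transcript as length and 2.67 in CPM.

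The genes known to govern the fetal to adult globin switch were measured for 12 of 17. All 12 reached 10 CPM, against 65.7% of all genes. After KLF1 the highest were MYB (166, 181 and 178 TPM) and the nucleosome remodelling subunits GATAD2A (149 ± 27.4 TPM) and CHD4 (148 ± 34.2 TPM). BCL11A, a repressor of gamma globin, was the lowest of the 12 at 1.99, 2.16 and 2.07 TPM, with 19.0, 21.0 and 17.9 CPM. It stood at rank 10421 of the protein-coding genes. Its merged exons measure 25422 bases, and TPM divides by that length. ZBTB7A, another gene of this list, was at 32.4, 38.4 and 36.8 TPM. LIN28B, IGF2BP1, IGF2BP3, HMGA2 and SOX6 were not among the measured genes.

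**Figure D2:**
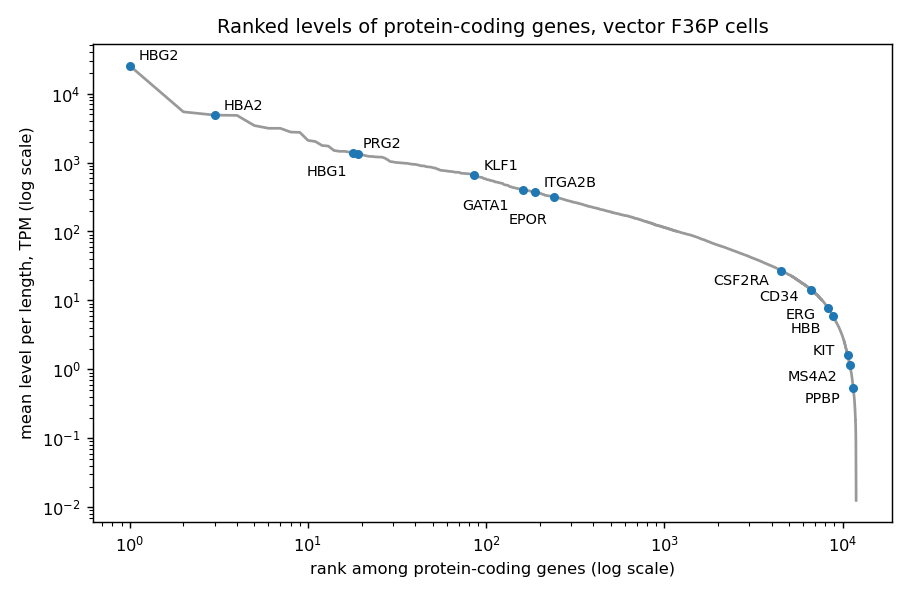
Mean level per length (TPM) of the protein-coding genes against their rank, both axes on log scales, with 15 genes marked. HBG2 is first with 25357 TPM and GATA1, ITGA2B and EPOR lie between ranks 162 and 241, while KIT is at rank 10684.

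Marker genes of neighbouring lineages were present beside the red cell genes. PRG2, the eosinophil major basic protein, ranked 18 among protein-coding genes, at 1923, 1076 and 1104 TPM (1327, 756 and 688 CPM). The gene, on chromosome 11 from 57386794 to 57390657, was highest in replicate 1. In the mast cell, basophil and eosinophil list it was followed by SRGN, the granule proteoglycan (416 ± 79.7 TPM), HDC, which makes histamine (434, 299 and 403 TPM), and CPA3, the mast cell carboxypeptidase (311, 147 and 194 TPM). Over the whole list, these genes included, 14 of 21 genes were measured. Of the 14, 8 reached 10 CPM, or 57.1% against 65.7% of all genes, with a median of 23.2 TPM. MS4A2, the beta chain of the IgE receptor, was at a mean of 1.17 TPM, and IL5RA, the eosinophil receptor, was lowest at 0.130 ± 0.0828 TPM. EPX, CLC, RNASE2 and CCR3 were not among the measured genes.

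ITGA2B, the alpha chain of the platelet fibrinogen receptor, was at 509, 226 and 373 TPM and 1061, 478 and 702 CPM. It is on chromosome 17 from 44372180 to 44389505, had rank 188 and was lowest in replicate 2. Its partner ITGB3 was at 25.7, 12.7 and 18.8 TPM, so that ITGA2B exceeded it by a log2 ratio of 4.26 ± 0.09, with the smallest SD of the 30 ratios. Over the whole megakaryocyte list, these 2 genes included, 21 of 24 genes were measured. Of the 21, 11 reached 10 CPM, or 52.4% against 65.7% of all genes, and the median was 7.16 TPM. NBEAL2, needed for alpha granules, was at 42.1 ± 2.34 TPM and GP1BA, a von Willebrand factor receptor chain, at 26.9 ± 2.09 TPM. CLEC1B had only 1 read, in replicate 1 (0.0626 TPM). PF4 and VWF were not among the measured genes.

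In the granulocyte and monocyte list 13 of 24 genes were measured. The genes not measured are left out of its median and of its share at 10 CPM. Each measured gene had at least 1.01 CPM in its second-highest library of the 6. Of the 13, 10 reached 10 CPM, or 76.9% against 65.7% of all genes, with a median of 39.6 TPM. Of the 24 listed, these 10 are the only genes seen at that level. The leading genes were SPI1 (286, 198 and 183 TPM), lysozyme, LYZ (297, 171 and 152 TPM), the sialic acid lectin CD33 (78.3, 52.7 and 52.1 TPM) and CEBPB (112, 27.3 and 30.3 TPM). CTSG had only 2 reads, both in replicate 1 (0.334 TPM), too few to tell the libraries apart. MPO, ELANE and CEBPA were not among the measured genes. All 10 genes at 10 CPM or more were highest in replicate 1, where 38.9% of all such genes were.

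Stem and progenitor genes had a median of 7.72 TPM over 11 measured of 18. GATA2 and TAL1 (166 ± 22.6 TPM), both also red cell factors, led the list, followed by BMI1 (15.5 ± 4.71 TPM) and HOXB4 (14.4 ± 4.15 TPM). MYCN was lowest at 0.0657 ± 0.0579 TPM. CD34 was at 16.8, 7.02 and 18.8 TPM and was lowest in replicate 2. The series' own gene ERG was at 7.72 ± 2.45 TPM and had rank 8289.

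Lymphoid genes had a median of 13.9 TPM over 8 measured of 24. CD4 (195 ± 30.2 TPM) and CD7 (97.7 ± 30.9 TPM), both also found on myeloid leukaemia cells, and CD79A, a B cell receptor chain, at 30.0 ± 15.1 TPM, stood above NKG7 (15.6 ± 3.31 TPM), while CD79B was lowest at 0.552, 0.660 and 1.91 TPM. The stromal, epithelial and endothelial genes had a median of 2.04 TPM over 9 measured of 17. EGFL7 (294 ± 41.4 TPM), an endothelial secreted factor whose transcription unit also holds a microRNA, led, followed by CDH1 (27.7 ± 7.92 TPM). Next were TEK (17.6 ± 3.00 TPM) and PECAM1 (12.9 ± 3.42 TPM), and CDH5 had only 1 read, in replicate 1 (0.0377 TPM). These medians cover measured members only, and every gene in the table had at least 1.01 CPM in its second-highest library of the 6.

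**Figure D3:**
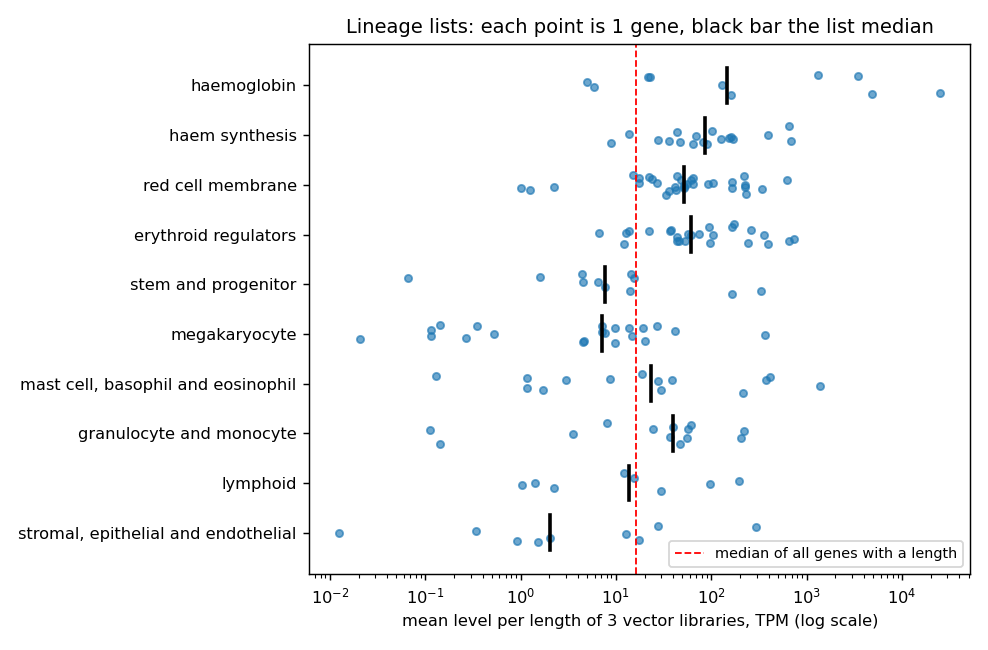
Mean level per length of the 3 vector libraries (TPM, log scale) for each measured gene of 10 lineage lists. The black bar is the median of the measured genes of a list and the dashed line the median of all genes, 16.2 TPM. Genes that were not measured are left out. The 4 red cell lists have medians between 51.5 and 147 TPM, and the stromal list has 2.04 TPM.

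Among cytokine receptors, EPOR and the common beta chain CSF2RB stood above the rest. EPOR was at 294, 324 and 329 TPM (316 ± 18.7, rank 241), and its gene is on chromosome 19 from 11377205 to 11384342. CSF2RB, shared by the GM-CSF, IL-3 and IL-5 receptors, was at 287, 262 and 257 TPM. The CSF2RB to EPOR ratio was -0.03, -0.31 and -0.36 on the log2 scale, below 0 in 3 of 3 libraries. The ligand-binding alpha chains were lower: CSF2RA, for GM-CSF, had 47.8, 18.6 and 15 TPM and IL3RA 28.3, 9.51 and 7.46 TPM. Both were highest in replicate 1. These 2 genes lie near the end of chromosome X (starts 1268800 and 1336616), in a part that has a copy on Y. How reads that fit both copies were counted is not known, so the 2 levels may be too low. The log2 ratio of CSF2RA to EPOR was -2.62, -4.12 and -4.46 (mean -3.73 ± 0.98), and that of IL3RA to CSF2RA was -0.91 ± 0.14. The share of the list at 10 CPM, 19 of 29, was near that of all genes (65.7%), and its median was 8.83 TPM.

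KIT, the stem cell factor receptor, was counted 55, 52 and 14 times and had a log2 ratio to EPOR of -7.78 ± 0.95. IL2RG, the common gamma chain, was at 66.1, 92.5 and 33.0 TPM, and the interferon receptor chain IFNAR2 at 34.5, 35.3 and 34.2 TPM. IFNAR2 thus varied little, whereas IL2RG was lowest in replicate 3.

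Of 25 JAK-STAT genes 24 reached 10 CPM, against 65.7% of all genes, with a median of 71.9 TPM. PIM1, a kinase induced by STAT5, was the highest at 1077, 615 and 615 TPM, and PIM2 was at 273, 151 and 156 TPM. For both, replicate 1 was higher than the other 2, which lay close together. STAT5A was at 210, 194 and 215 TPM, and the log2 ratio of STAT5B to it was -1.02 ± 0.14. LYN, a SRC family kinase of the EPO receptor, was at 182 ± 11.7 TPM. JAK2 exceeded JAK1 in 2 of 3 libraries only (0.24 ± 0.31), and JAK3 was lowest at 1.38, 0.144 and 0.333 TPM (0.238 TPM without replicate 1).

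Of the BCL2 family, BCL2L1 (BCL-XL), a known survival factor of red cell precursors, was at 146, 144 and 148 TPM. It exceeded BCL2 by 4.11 ± 0.63 on the log2 scale. MCL1, at 116, 123 and 161 TPM, overlapped with BCL2L1 (-0.15 ± 0.24). The death effector BAX was at 91.8 ± 8.19 TPM. BBC3 (PUMA) was at 83.7, 21.0 and 20.4 TPM, high in replicate 1 alone, and BMF was the lowest at 1.18, 0.216 and 0.156 TPM (0.186 TPM without replicate 1).

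The direction of several of these ratios depended on the division by length. Without it, in CPM, the mean log2 ratio turned to -1.30 for GATA1 to GATA2, to 0.47 for CSF2RB to EPOR and to 0.25 for MCL1 to BCL2L1. Others kept their sign but moved over 1.5-fold: BCL2L1 to BCL2 was 2.28, IL3RA to CSF2RA -2.07, FTH1 to FTL -0.91, HDAC7 to HDAC1 1.86 and LDHA to LDHB -1.47.

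**Figure D4:**
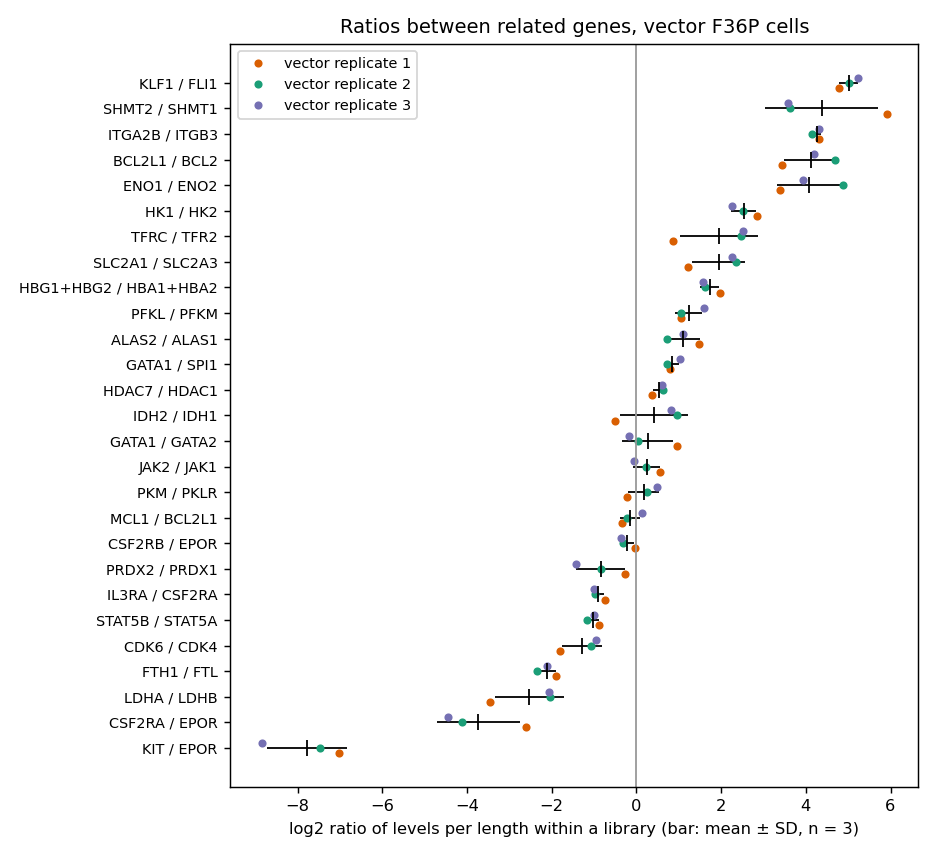
Log2 ratio of the levels per length of 27 gene pairs within each library; points are the 3 vector libraries and bars the mean ± SD (n = 3). KLF1 against FLI1 is at 5.01 and KIT against EPOR at -7.78, while GATA1 against GATA2 spans 0.

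Energy metabolism was led by the mitochondrially encoded genes, all 15 of which lay above the 99th percentile of all genes, with a median of 9045 TPM. MT-CO1, a subunit of complex IV, was at 23087, 21373 and 13459 TPM, MT-CO3 at 17567, 20962 and 13761 TPM, and MT-CO2 at 17278, 21511 and 13199 TPM. MT-ATP6, of the ATP synthase, was at 13455, 22412 and 11453 TPM. The ribosomal RNA gene MT-RNR1 was lowest at 1643 ± 861 TPM. These libraries are of polyadenylated RNA, so that value need not reflect its level in the cells. Mitochondrial genes together took 6.23, 7.18 and 3.77% of the counts, lowest in replicate 3.

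All 23 measured glycolysis genes reached 10 CPM, against 65.7% of all genes, with a median of 88.3 TPM. GAPDH was at 1364, 1581 and 2356 TPM, LDHB at 778, 835 and 988 TPM, ENO1 at 413, 720 and 762 TPM and TPI1 at 278, 331 and 380 TPM. All 4 were lowest in replicate 1, as were 17 of the 23, against 45.4% of all genes. SLC16A3, a lactate exporter, was lowest by its mean, at 5.18, 17.8 and 4.13 TPM, high in replicate 2 alone.

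Several forms of the glycolytic enzymes were unequal. HK1 exceeded HK2 by 2.53 ± 0.30 on the log2 scale, ENO1 exceeded ENO2 by 4.07 ± 0.76, PFKL exceeded PFKM by 1.23 ± 0.31 and the glucose transporter SLC2A1 exceeded SLC2A3 by 1.94 ± 0.63, each in 3 of 3 libraries. The phosphofructokinase PFKP, at 38.1, 49.0 and 43.5 TPM, overlapped with PFKL (54.5, 43.3 and 70.6 TPM). LDHA, the form that favours lactate, was at 70.0, 203 and 236 TPM and had a log2 ratio to LDHB of -2.53 ± 0.82. The red cell pyruvate kinase PKLR (198, 236 and 261 TPM) and the general PKM (168, 279 and 367 TPM) overlapped, with a log2 ratio of 0.17 ± 0.37. With the longest transcript as length this ratio was 1.62.

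The 25 pentose phosphate and antioxidant genes all reached 10 CPM, against 65.7% of all genes. Their median was 147 TPM, and 17 lay among the highest 10% of genes. PRDX5 (550 ± 121 TPM), PRDX1 (283, 589 and 701 TPM), SOD1 (303, 419 and 543 TPM) and GPX1 (524, 269 and 329 TPM), which remove peroxides and superoxide, led, and GCLC was lowest at 25.1 ± 1.76 TPM. PRDX2, an abundant red cell peroxiredoxin, had a log2 ratio to PRDX1 of -0.84 ± 0.58. Replicate 1 was lowest for PRDX1 and SOD1 and highest for GPX1. The 23 citrate cycle genes also all reached 10 CPM, at a lower median of 52.1 TPM, from SUCLA2 (9.70 ± 2.00 TPM) to IDH2 (125 ± 9.14 TPM), CS (121 ± 20 TPM), IDH3B (118 ± 9.97 TPM) and MDH2 (111 ± 12.1 TPM). The top 4 did not differ beyond their spread. IDH1 was at 193, 63.6 and 67.2 TPM, so that the ratio of IDH2 to IDH1 was below 0 in replicate 1 (-0.51) and above 0 in the others (0.95 and 0.81). With the longest transcript as length the mean ratio turned to -0.47.

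Proliferation genes had a median of 101 TPM, and 19 of 19 reached 10 CPM, against 65.7% of all genes. PCNA, the DNA polymerase clamp, was at 233, 361 and 400 TPM, the helicase subunit MCM7 at 238, 282 and 377 TPM, MCM3 at 142, 201 and 262 TPM and cyclin A2, CCNA2, at 131, 212 and 219 TPM. MKI67 was lowest at 24.9 ± 8.73 TPM. Replicate 1 was lowest in 18 of 19, against 45.4% of all genes. MYC was at 900, 724 and 871 TPM (rank 52), CCND3, the cyclin of red cell precursors, at 208 ± 33.3 TPM, the inhibitor CDKN2C at 200 ± 31.7 TPM and CDK4 at 169 ± 14.6 TPM. The log2 ratio of CDK6 to CDK4 was -1.28 ± 0.47, and 0.67 in CPM. The inhibitor CDKN1A (p21) was the lowest of its list, counted 25, 10 and 36 times and at 1.88, 0.643 and 3.35 TPM.

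In the ETS family SPI1 led, with ETS2 (115 ± 12.1 TPM), ERF (99.1 ± 23.2 TPM) and ELK1 (91.0 ± 7.69 TPM) next and FEV (0.573 ± 0.202 TPM) last. Of the histone deacetylases HDAC7, named in the series title, was highest at 120, 126 and 164 TPM. It exceeded HDAC1 (92.9, 81.8 and 108 TPM) by 0.53 ± 0.14 in 3 of 3 libraries. HDAC2 was at 50.4 ± 8.51 TPM, HDAC10 at 45 ± 2.33 TPM and HDAC11, the lowest, at 0.817 ± 0.226 TPM.

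Beyond globins, the 20 highest protein-coding genes held APOE, the lipid carrier, at 6086, 3788 and 4604 TPM (rank 4), and CALR, the chaperone calreticulin, at rank 9. Also among them were RPL8 and RPS16 of the ribosome, the actins ACTB and ACTG1, the tubulin TUBA1B, TMSB10, HSP90AB1, GAPDH, PABPC1, YBX1, UBB, FTL and PRG2. Ribosomal protein genes took 5.14, 3.43 and 3.81% of the counts. Pseudogenes took 6.15, 4.97 and 5.23%, so reads of genes with such copies may be divided.

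Of the 9730 genes with a mean of at least 10 CPM, 1053 (10.8%) differed 2-fold or more between the highest and lowest library, and replicate 1 was the highest or lowest in 948 of them (90%), as it was in 84.3% of all 9730. Taken pair by pair on log2(CPM + 1), 573 genes differed 2-fold or more between replicates 1 and 2, 664 between 1 and 3 and 145 between 2 and 3. The median coefficient of variation was 16.1%, and 7.77% without replicate 1. The edgeR biological coefficient of variation was 23.9%, and 14.3% without replicate 1. The median was 32.4% for genes at 1 to 10 CPM, where counting alone would give 16.7%, and 15.6% at 100 to 1000 CPM, where it would give 2.24%.

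Of the 10 most variable genes with a mean of at least 20 CPM, 8 were highest in replicate 1. S100P, a calcium-binding protein, had 73.8, 4.27 and 0.48 CPM in replicates 1, 2 and 3. NUPR1, a stress-induced nuclear protein, had 70.3, 0.674 and 2.21 CPM. PHGDH, the first enzyme of serine synthesis, had 439, 21.6 and 21.1 CPM, and the pseudokinase TRIB3 had 361, 38.4 and 39.1 CPM. In these genes replicates 2 and 3 lay far below replicate 1. INHBE, OSCAR, CHAC1, which degrades glutathione, and ACP5 had ratios of 24.3, 22, 18.6 and 12 with the same library highest. MEST (19.1, 38.2 and 3.17 CPM) and TUBB6 (7.16, 60.0 and 5.96 CPM) were highest in replicate 2.

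Of the 13 genes of the whole serine and one-carbon list at 10 CPM, 7 were highest in replicate 1, against 38.9% of all genes. Another 4 were lowest there, against 45.4% of all genes. MTHFD2 was at 352, 140 and 166 TPM, SHMT2 at 373, 98.3 and 100 TPM and PSAT1 at 281, 56.7 and 70.7 TPM. Replicate 1 was high in all of them, while TYMS, which makes thymidylate, was lowest there (87.8, 134 and 142 TPM). SHMT2 exceeded SHMT1 by 5.92, 3.63 and 3.57 on the log2 scale. ALDH1L2 was the lowest member at 2.40, 0.207 and 0.333 TPM (mean 0.981, and 0.27 without replicate 1). Over the 13 genes at 10 CPM the median log2 difference of replicate 1 from the mean of the others was 0.57, against -0.04 over all genes.

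Of the amino acid transporters, 7 of 9 at that level were highest in replicate 1, against 38.9% of all genes, with a median difference of 0.75. SLC1A5, a glutamine carrier, was at 954, 549 and 641 TPM, SLC7A5, of the large neutral amino acids, at 331, 163 and 189 TPM, and its partner SLC3A2 at 196, 81.1 and 78.7 TPM. SLC38A5, at 57.0, 111 and 149 TPM, went the other way, and SLC38A1 was lowest by its mean, at 2.13, 0.0391 and 0.0283 TPM (0.0337 TPM without replicate 1).

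Cholesterol synthesis genes were lower in replicate 1. It was the lowest library in 20 of the 22 genes at 10 CPM (45.4% of all genes), 16 of the 22 differed 2-fold or more between libraries, against 10.8% of all genes, and the median log2 difference was -1.07. SQLE, which oxidises squalene, was at 77.9, 199 and 251 TPM. FDFT1, which makes squalene, had a smaller gap, at 98.1, 112 and 152 TPM. HSD17B7 was the lowest at 3.78 ± 1.21 TPM. The median difference was -0.59 for proliferation, -0.41 for glycolysis, 1.09 for granulocyte and monocyte and 0.69 for mast cell, basophil and eosinophil genes. It was 0.02 for erythroid regulators, of which 1 of 25 differed 2-fold or more. What sets replicate 1 apart was not tested.

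**Figure D5:**
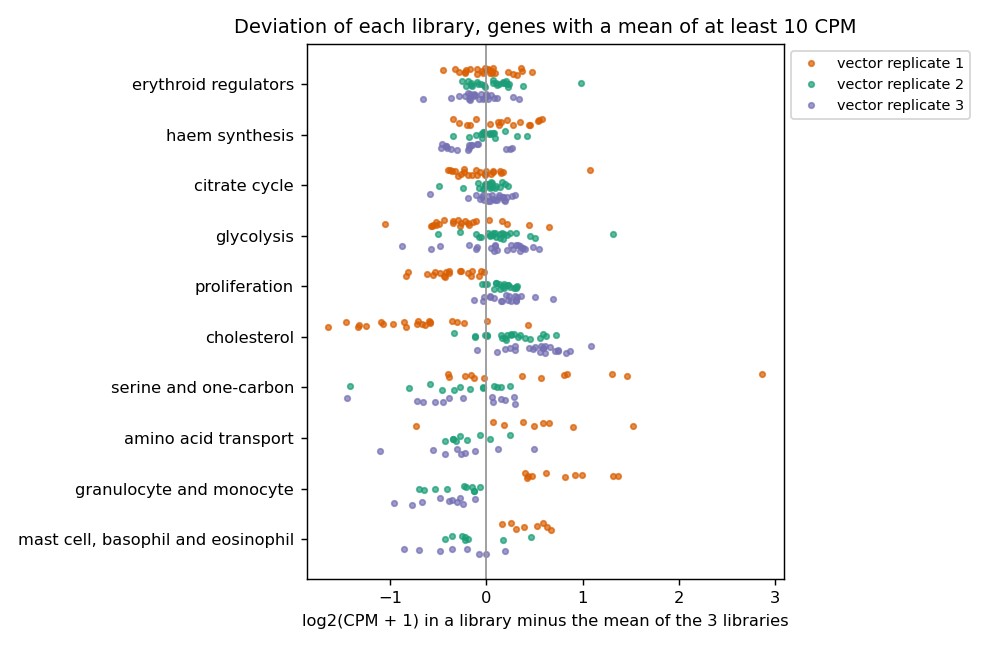
Log2(CPM + 1) of each gene in a library minus its mean over the 3 vector libraries, for genes of 10 lists with a mean of at least 10 CPM; colours are the replicates. Replicate 1 lies to the left for cholesterol genes, with a median difference of -1.07 from the others, and to the right for granulocyte and monocyte genes, with 1.09.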

How the data were processed

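Polyadenylated RNA of F36P cells was sequenced, and the 3 vector libraries were analysed. The deposited table holds whole-number read counts per gene, made by the authors, although its name speaks of CPM. The build hg38 and the tool edgeR 3.32.1 are named, per the submitters' processing notes. The aligner, the counter, its strand setting and the annotation are not given in the sources used here. 0 columns of per-sample values were left unmapped.

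From the counts, TMM-normalised CPM were computed with edgeR 4.0.16 in R 4.3.3. TPM used the merged exons of GENCODE release 29 for 13221 genes matched by name and 641 by an older name, and RefSeq lengths for 32 mitochondrial genes. The 927 genes with no length held 1.02% of the counts and have CPM only. Gene coordinates are those of GENCODE release 29, and promoter coordinates and sequences those of RefSeq on GRCh38.p14. A chi-square statistic over gene counts between replicates was 65.4, 62.2 and 21.6 per degree of freedom for the pairs 1 and 2, 1 and 3 and 2 and 3, so none was counted as a repeat of another. Counting error limits genes with few counts. The scripts were tested on simulated data. With 3 libraries an exact sign-flip test of a ratio cannot go below p = 0.25 (two-sided), so ratios are given as mean ± SD with the number of libraries on each side.

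The 26 lists (444 of 521 genes measured), the pairs and the members were chosen with earlier results of these data known. The genes named are 5 markers, the 20 highest protein-coding genes, the 4 highest and the lowest of each list, both genes of each pair and the 10 most variable at 20 CPM or more. AHSP, AQP1, SLC4A1, MS4A2, CD34, ERG, PFKP, ZBTB7A and PPBP (marked in the plot of ranks) were chosen after their values were seen. Some genes that the rule takes are left out of the text. Alternatives were DESeq2 1.42.0 size factors, TMM over all 6 libraries, column totals, another length, other minimum levels and leaving out each library.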

Additional observations from a re-analysis of the deposited data

How the results depend on the processing

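DESeq2 size factors, TMM over all 6 libraries or column totals left the counts of members at 10 CPM as they were in the 7 lists tried, and gave 9730 to 9761 genes at 10 CPM, 1052 to 1065 genes differing 2-fold or more and a median coefficient of variation of 16.0 to 16.2%. Ratios between genes depended on the length used. With the longest transcript, GATA1 against GATA2 turned to -0.13 and IDH2 against IDH1 to -0.47 on the log2 scale, and GATA1 against PU.1 was 0.29, CSF2RB against EPOR -0.55 KLF1 against FLI1 4.41 and PKM against PKLR 1.62. With no length (CPM), GATA1 against GATA2 turned to -1.30, IDH2 against IDH1 to -0.33, CSF2RB against EPOR to 0.47, MCL1 against BCL2L1 to 0.25 and CDK6 against CDK4 to 0.67, while GATA1 against PU.1 was 0.39 KLF1 against FLI1 2.67 and PKM against PKLR 1.60. The median percentile of the haemoglobin list was then 52.1 (93.1 per length), of erythroid regulators 90.9 (82.8) and of the mast cell, basophil and eosinophil list 35.2 (58.9). At 50 CPM, 4829 genes counted as present in place of 9730. The number of genes differing 2-fold or more was 2870 from 1 CPM and 188 from 100 CPM. Leaving out 1 library gave 161 (without replicate 1) to 756 such genes (665 without replicate 3), a median coefficient of variation of 7.77 to 17.1%, a biological coefficient of variation of 14.3 to 27.5% and a GATA1 to GATA2 ratio of -0.07 to 0.49. No paired analysis was possible because only the vector libraries were described (1 group). The cause of these shifts was not tested, beyond the length or level each alternative sets.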
